A study of Homo sapiens with 6 samples.

Results

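The mRNAs of 10 genes that control the G1 phase of the cell cycle were described in U2OS cells, a human osteosarcoma line. The genes were taken from a fixed list of CDK inhibitors, D-type cyclins, their kinases and the retinoblastoma gene, namely CDKN2A, CDKN2B, CDKN2C, CDKN1B, CDKN1C, CCND1, CCND3, CDK4, CDK6 and RB1. The symbols were matched to Ensembl identifiers, and all 10 were found among the 67140 genes counted. The study compared 3 groups of wild-type U2OS cells with 2 RNA-Seq libraries each, which were control cells without treatment, cells given 1.5 μg/ml adriamycin and cells given 100 μM etoposide, for 4 h in both treated groups. Etoposide and adriamycin both trap topoisomerase II on DNA, and the study asked how gene expression differs between them. The 10 genes were measured here in the etoposide libraries, which held 21450766 and 14244235 counts. The control libraries gave 280 and 292 genes here and the adriamycin libraries 220 and 221, with 0 of the 10 among them, so counts of the 10 genes in those groups were not analysed here. All values below are therefore levels after etoposide, with no comparison between treatments.

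Cyclin D1, D2 or D3 binds CDK4 or CDK6, and the complex phosphorylates the retinoblastoma protein RB1. Phosphorylated RB1 releases E2F transcription factors, which then drive the genes of S phase. INK4 proteins (encoded by CDKN2A to CDKN2D) bind CDK4 and CDK6 and keep cyclin D away, whereas CIP/KIP proteins (p21, p27 and p57, encoded by CDKN1A, CDKN1B and CDKN1C) bind cyclin-CDK complexes and inhibit CDK2. CDKN2A also encodes ARF, a protein unrelated to p16, from a separate first exon and the same second exon read in another frame. U2OS cells are known to keep an intact RB1 gene and not to express p16.

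Etoposide-treated cells held mRNA of 8 of the 10 genes at 10 or more counts in each library, against 68.9% of the 19892 protein-coding genes. CDKN2A and CDKN2B, the neighbouring INK4 genes on chromosome 9, were at or near 0. The other 8 spanned from 5.02 TPM for CDKN1C to 304 TPM for CCND1. TPM is the count of a gene divided by the length of its merged exons and scaled to the same total in each library, so that levels of different genes can be set side by side. In the labels the cells are called epithelial and their source bone. Of 9 bone and mesenchyme markers 5 had at least 10 counts in both libraries, with COL1A1 at 1368 TPM, while COL1A2, SP7, IBSP and BGLAP did not. Of 8 epithelial markers 7 did, with KRT8 at 451 TPM but CDH1, the defining cadherin of epithelium, at 0.792 and 0.812 TPM. Of 4 leukocyte markers 0 reached 10 counts in both libraries, and 2 of 3 endothelial markers did, with PECAM1 the highest at 0.451 TPM.

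**Figure D1:**
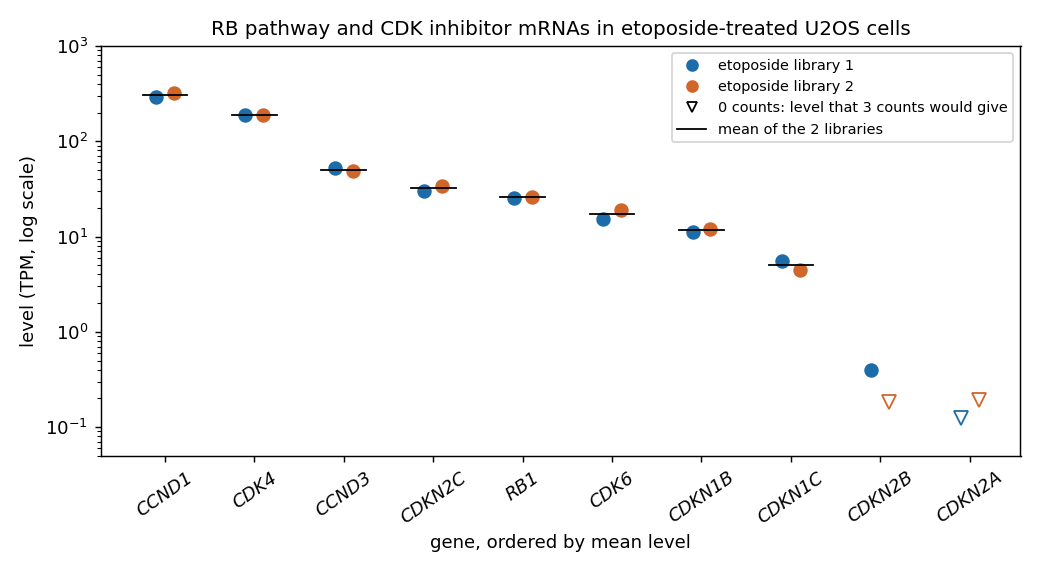
Level of each gene (TPM, log axis) in etoposide library 1 and library 2, with the mean as a bar and open triangles at the level that 3 counts would give where a library had 0 counts. The 2 libraries lie close to each other for the 8 genes from CCND1 (304 TPM) to CDKN1C (5.02 TPM), and CDKN2B and CDKN2A lie at the bottom.

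The 250 bases before annotated starts of 3 INK4 genes are shown here because CDKN2A and CDKN2B were near 0 while CDKN2C was not. They were taken from RefSeq (GRCh38.p14) and are written 5′ to 3′ on the strand of the gene, with each CpG dinucleotide, the site of DNA methylation, in capitals. The first CDKN2A sequence precedes the start of the ARF transcript and the second that of the p16 transcript. For CDKN2C the start of the Ensembl canonical transcript was taken among 3 starts listed.
CDKN2A chr9:21995325-21995574 (minus strand): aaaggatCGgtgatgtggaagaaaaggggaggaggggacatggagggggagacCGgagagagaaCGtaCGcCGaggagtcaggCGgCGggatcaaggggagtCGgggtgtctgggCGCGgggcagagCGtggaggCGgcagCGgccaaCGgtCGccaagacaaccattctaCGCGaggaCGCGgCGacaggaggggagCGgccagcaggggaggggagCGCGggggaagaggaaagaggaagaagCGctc
CDKN2A chr9:21974858-21975107 (minus strand): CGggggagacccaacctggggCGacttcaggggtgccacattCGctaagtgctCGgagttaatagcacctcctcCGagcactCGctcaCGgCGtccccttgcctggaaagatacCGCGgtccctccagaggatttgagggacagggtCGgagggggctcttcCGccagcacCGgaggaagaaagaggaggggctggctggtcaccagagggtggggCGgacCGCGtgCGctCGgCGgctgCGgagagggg
CDKN2B chr9:22009306-22009555 (minus strand): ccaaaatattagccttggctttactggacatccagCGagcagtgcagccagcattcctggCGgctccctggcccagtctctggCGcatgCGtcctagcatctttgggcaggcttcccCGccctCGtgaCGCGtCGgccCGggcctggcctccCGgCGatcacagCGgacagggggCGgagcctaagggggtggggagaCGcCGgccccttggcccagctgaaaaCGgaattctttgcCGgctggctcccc
CDKN2C chr1:50969995-50970244 (plus strand): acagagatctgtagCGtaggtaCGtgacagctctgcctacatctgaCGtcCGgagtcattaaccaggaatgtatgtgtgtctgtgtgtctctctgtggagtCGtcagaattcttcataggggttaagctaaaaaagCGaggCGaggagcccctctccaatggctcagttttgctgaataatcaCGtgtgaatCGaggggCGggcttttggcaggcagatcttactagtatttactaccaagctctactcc

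These windows held 24 CpG before the ARF start, 20 before the p16 start, 18 before CDKN2B and 10 before CDKN2C. The median over 35116 RefSeq starts was 11 CpG. The INK4 genes near 0 thus had more CpG in these windows than the median start, and CDKN2C at this start did not. Another listed start of CDKN2C, which lies within an annotated exon of the gene, had 35 CpG. Of the detected genes, CDK6, CDKN1B, CCND3 and CDK4 had 30, 27, 26 and 19 CpG before their canonical starts, also more than the median. At the only listed start of RB1, far from the canonical one, there were 0. More CpG than the median was thus not particular to the genes near 0. Methylation was not measured. The table held 14 starts of 8 of the genes. CCND1 and CDKN1C had no start there, and the RB1 window lay 172699 bases from the canonical start. The E2F motif, searched on both strands as TTTCCCGC, TTTCGCGC, TTTGCCGC or TTTGGCGC, was found in 0 of these 14 windows and in 2.79% of all windows of this length. So few windows cannot tell 0 from that share.

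CDKN2A (ENSG00000147889, chromosome 9, bases 21967752 to 21995301 of GRCh38, minus strand) had 0 counts in library 1 and 0 counts in library 2. A count of 0 allows up to 3 counts, or 0.140 and 0.211 CPM (counts per 1000000 counts of the library), and these limits cover counting error only. On the per-length scale this is at most 0.124 TPM in library 1 and 0.190 TPM in library 2. The counts are per gene, so they cover p16 and ARF together. Of the 3885 exon bases of CDKN2A, 593 are also exon of CDKN2B-AS1 on the opposite strand, where reads may not have been assigned to either gene, and 3292 belong to CDKN2A alone. No window of 150 bases, the read length, in its annotated transcripts occurs on the same strand in a transcript of another gene, and the same held for each of the other 9 genes.

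CDKN2B (ENSG00000147883, chromosome 9, bases 22002903 to 22009305, minus strand) encodes p15, the INK4 protein induced by TGF-β. It had 10 counts in library 1 and 0 counts in library 2. The library with 10 counts gives 0.466 CPM with an exact (Clopper-Pearson) 95% interval of 0.224 to 0.857. By the same method the 0 counts of the other library allow up to 0.259, so the intervals overlap. By an exact two-sided binomial test of the 2 libraries with no filter on low counts, p was 0.00743 and adjusted p 0.0732 over 34172 genes, so the difference did not pass the threshold of 0.05. The level of CDKN2B rests on a single library.

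On the 2 sides of this pair, the nearest genes with at least 10 counts in both libraries were MTAP and DMRTA1. MTAP, an enzyme of methionine salvage, had 580 and 425 counts, or 6.41 and 7.21 TPM. DMRTA1, a transcription factor gene on the other side, had 279 and 175 counts, or 8.01 and 7.73 TPM. In the 509 kb between them lie, whole, 9 annotated genes, which together held 13 counts in library 1 and 1 count in library 2. Only CDKN2A and CDKN2B of these are protein-coding, and the others are long noncoding RNAs, miscellaneous RNAs or a pseudogene. Of all 67140 genes counted, 17207 had at least 10 counts in both libraries. CDKN2B-AS1, the antisense RNA also called ANRIL, had 2 and 1 counts, and CDKN2A-DT had 0 in both. IFNE, farther out beyond MTAP, had 4 and 2 counts. Each library thus held at least 175 counts of MTAP and of DMRTA1, and at most 10 of any gene that lies wholly between them. Counts this low were not particular to that interval. Beyond MTAP, KHSRPP1 had 5 and 0 counts, and the protein-coding genes IFNA1 and IFNA8 had 0 in both.

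**Figure D2:**
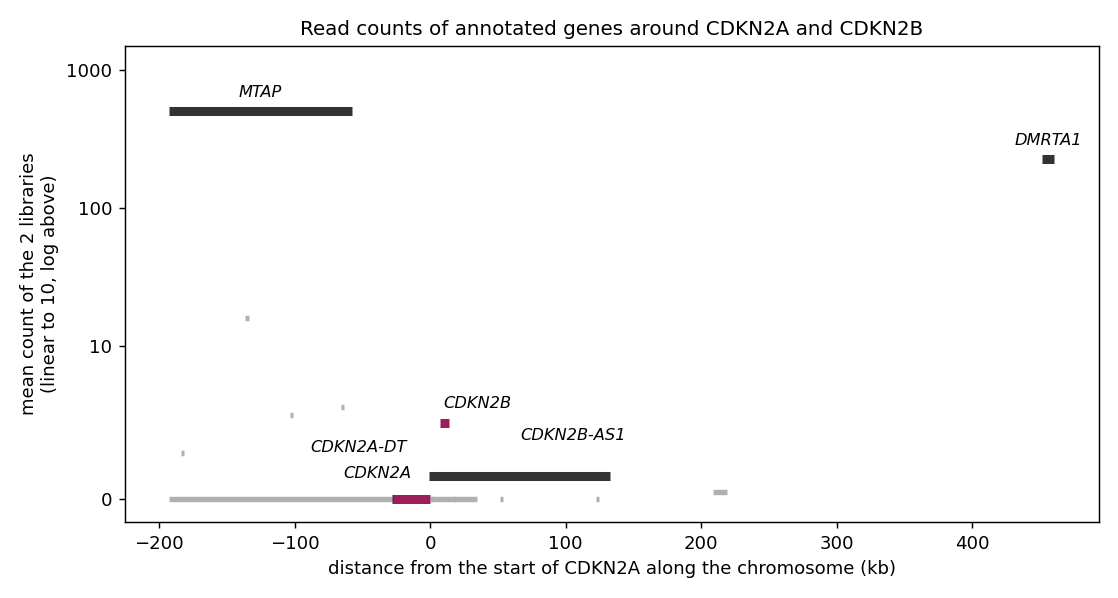
Mean count over the 2 etoposide libraries (vertical axis, linear to 10 and logarithmic above) of each annotated gene, drawn as a bar from its first to its last base against the distance from the start of CDKN2A in kb. MTAP and DMRTA1, with 175 to 580 counts in each library, stand high, and CDKN2A, CDKN2B and the genes between MTAP and DMRTA1 lie at or below 5.

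The other INK4 genes were present. CDKN2C (ENSG00000123080, chromosome 1, bases 50960745 to 50974634) encodes p18 and had 572 and 419 counts, or 30.4 and 34.2 TPM, with a mean of 32.3 ± 2.71 TPM (SD, n = 2). This is above 67.2% of the 13715 protein-coding genes with at least 10 counts in both libraries. CDKN2D, which encodes p19 and is not among the 10 genes, had 254 and 164 counts, or 27.1 and 26.9 TPM. Against the level that 3 counts of CDKN2A would give, CDKN2C was 245-fold higher in library 1 and 180-fold higher in library 2. These lower bounds leave out the counting error of CDKN2C. With the longest transcript of each gene as its length in place of the merged exons, these bounds were 69.1-fold and 50.6-fold.

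Of the CIP/KIP genes, CDKN1B (ENSG00000111276, chromosome 12, bases 12685498 to 12722369), which encodes p27, had 650 and 446 counts. Its levels were 11.3 and 11.9 TPM, with a mean of 11.6 ± 0.436 TPM (SD, n = 2), above 41.6% of the detected protein-coding genes. CDKN1C (ENSG00000129757, chromosome 11, bases 2883213 to 2885775, minus strand), which encodes p57 from an imprinted locus, had 86 and 45 counts. Its levels were 5.56 and 4.47 TPM, with a mean of 5.02 ± 0.770 TPM (SD, n = 2), the lowest of the 8 detected genes. The CDKN1B to CDKN1C ratio of TPM was 2.03 in library 1 and 2.66 in library 2, and 3.90 on average with the longest transcript as length. CDKN1A, which encodes p21, is the remaining CIP/KIP gene, and its levels were 692 and 703 TPM. Over the 7 inhibitor genes together, CDKN1A made up 90.2 ± 0.136% (SD, n = 2) of the summed TPM. CDKN2C made up 4.18%, CDKN2D 3.49%, CDKN1B 1.50% and CDKN1C 0.649%. With etoposide the pool of inhibitor mRNA was thus for the most part CDKN1A, and its level in control cells was not analysed here.

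CCND1 (ENSG00000110092, chromosome 11, bases 69641156 to 69654474), which encodes cyclin D1, was the highest of the 10 genes per merged exon length. It had 8570 and 6176 counts, or 289 and 320 TPM, with a mean of 304 ± 22.0 TPM (SD, n = 2), above 97.4% of the detected protein-coding genes. CCND3 (ENSG00000112576, chromosome 6, bases 41934934 to 42050357, minus strand), which encodes cyclin D3, had 1868 and 1126 counts, or 52.0 and 48.2 TPM, with a mean of 50.1 ± 2.70 TPM (SD, n = 2). CCND1 exceeded CCND3 in both libraries, by 5.55 and 6.64 times in TPM. CCND2, the third D-type cyclin gene, was at 57.2 and 56.6 TPM, so that CCND1 held 73.9 ± 1.96% (SD, n = 2) of the summed TPM of the D-type cyclins, CCND2 13.8% and CCND3 12.2%. The size of the gap depends on the exons counted as CCND3. With the longest transcript as length CCND3 was at 90.8 TPM on average and CCND2 at 50.1 and 49.8 TPM, which turns the order of these 2 genes, and the CCND1 to CCND3 ratio was 2.84.

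CDK4 (ENSG00000135446, chromosome 12, bases 57747727 to 57756013, minus strand) had 3675 and 2338 counts, or 191 and 186 TPM, with a mean of 188 ± 2.98 TPM (SD, n = 2), above 95.1% of the detected protein-coding genes. CDK6 (ENSG00000105810, chromosome 7, bases 92604921 to 92836573, minus strand) had 1159 and 949 counts, or 15.2 and 19.1 TPM, with a mean of 17.2 ± 2.78 TPM (SD, n = 2), above 50.9%. The 2 kinases share the D-type cyclins as partners, and per length CDK4 exceeded CDK6 by 12.5 times in library 1 and 9.75 times in library 2. In raw counts the mean ratio was 2.82, since the merged exons of CDK6 are 12239 bases long and those of CDK4 3094. Of the CDK4 exon bases, 1369 are also exon of TSPAN31 on the opposite strand, which had 299 and 214 counts. A further length, chosen after seeing the data, was the exon bases of each gene that no other gene shares. All counts of the gene were kept and the library was not rescaled. These values are thus TPM multiplied by a ratio of lengths, and they hold only if no read from shared bases was counted. CDK4 was then at 338, against 340 for CCND1, and the mean ratio of CDK4 to CDK6 was 19.8. CDK2, the kinase of cyclins E and A, was at 121 and 112 TPM.

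RB1 (ENSG00000139687, chromosome 13, bases 48303744 to 48599436) had 1014 and 684 counts, or 25.3 and 26.2 TPM, with a mean of 25.8 ± 0.659 TPM (SD, n = 2), above 61.2% of the detected protein-coding genes. Its relatives RBL2 (p130), which acts in quiescent cells with E2F4, and RBL1 (p107) were at 19.4 and 23.0 TPM and at 10.6 and 13.4 TPM. Per merged exon length RB1 was above both relatives in each library and held 43.8 ± 2.74% (SD, n = 2) of the summed TPM of the pocket protein genes, with RBL2 at 35.9% and RBL1 at 20.2%. The order of RB1 and RBL2 was not firm. With only exon bases that no other gene shares as length, computed as for CDK4, RBL2 was at 23.2 in library 1 and 27.5 in library 2. The latter was above RB1. In raw counts, which are not corrected for length, the mean ratio of RB1 to RBL2 was 0.969.

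In order of mean TPM the 10 genes were CCND1, CDK4, CCND3, CDKN2C, RB1, CDK6, CDKN1B, CDKN1C, CDKN2B and CDKN2A. Neighbours among the first 9 did not overlap between libraries, whereas CDKN2B and CDKN2A overlapped at 0. With merged exons the narrowest step was from CDKN2C to RB1, at 1.26-fold, and it turned with the longest transcript as length, where RB1 was at 26.2 TPM and CDKN2C at 25.3. CDKN1B, at 18.6 TPM, then also stood above CDK6, at 13.6. The step from CCND1 to CDK4 narrowed from 1.62-fold to 1.09-fold with that length. With unshared exon bases as length, on the scale described for CDK4, CCND1 was at 322 and 357 and CDK4 at 342 and 334. Their ranges then overlapped, and CDK4 was the higher in library 1. With 2 libraries an exact permutation test between neighbours cannot reach p of 0.05, so none was made.

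The wider pathway was present almost as a whole. Of 36 other genes of the G1 and RB pathway, 34 had at least 10 counts in both libraries, against 68.9% of the protein-coding genes. The exceptions were CCNA1, the germline cyclin A, at 4 and 2 counts, and LIN37 of the MuvB complex, at 15 and 9 counts, which shares 1522 exon bases with other genes. All 3 activator E2F genes, the factors that RB1 restrains, were detected, with E2F1 at 301 TPM the highest and E2F3 at 21.6 TPM the lowest. All 5 repressor E2F genes were detected, from E2F5 at 6.55 TPM to E2F4 at 113 TPM, and of the dimer partners TFDP1 was at 248 TPM and TFDP2 at 6.89 TPM. Cyclin E1 (CCNE1) was at 287 TPM and was the highest of the E- and A-type cyclins. Of the CDK-activating kinase, the kinase gene CDK7 was at 25.9 TPM and its cyclin gene CCNH at 6.30 TPM. CDC25A, the phosphatase that activates CDK2, was at 93.5 TPM. Of 7 genes that control the turnover of p27 and cyclins all were detected, from AMBRA1, which targets cyclin D, at 8.73 TPM to CKS1B, the cofactor of SKP2, at 145 TPM. The median over the 36 genes, with the undetected CCNA1 and LIN37 included, was 23.7 TPM. Over the protein-coding genes, with only detected ones included, it was 16.5 TPM.

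**Figure D3:**
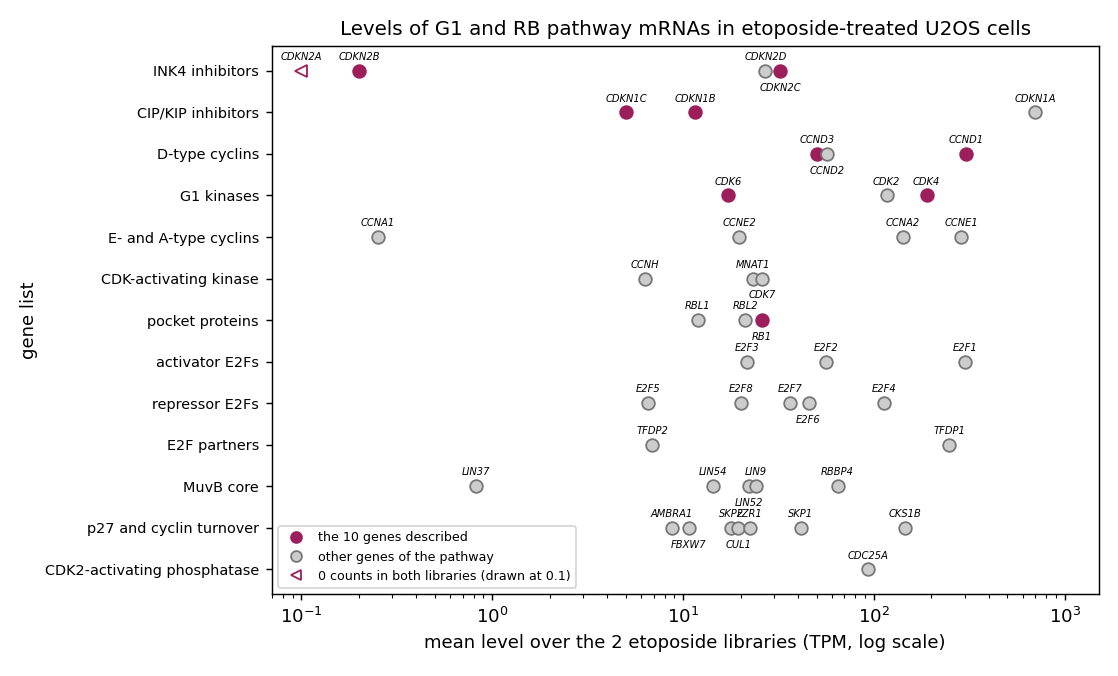
Mean TPM over the 2 etoposide libraries (log axis) of the genes of each list, with the 10 genes described in colour and the other pathway genes in grey. CDKN2A at 0 and CDKN2B, CCNA1 and LIN37 under 1 TPM stand apart from the rest, which lie between 5.02 TPM (CDKN1C) and 697 TPM (CDKN1A).

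The libraries were compared gene by gene to see how far replicates lie apart. Counts were scaled by edgeR's TMM factors and compared by an exact two-sided binomial test, which compares these libraries and not conditions and sets each difference against counting error alone, with reads taken as independent. Of 17207 genes with at least 10 counts in both, 19.5% differed at an adjusted p under 0.05, and 3 of the 8 members tested did. CDK6 was lower in library 1 by 0.27 on the log2 scale (exact binomial test, Benjamini-Hochberg adjusted p = 0.000374). CCND1 was lower in library 1, with a log2 ratio of −0.08 (adjusted p = 0.00528, same exact test), and CCND3 was higher there, with a log2 ratio of 0.17 (adjusted p = 0.0109, same exact test). CCND3 passed with TMM and not with total counts alone (adjusted p = 0.0543, exact test), and CDK4, at 0.10 and an adjusted p of 0.0569 by the exact test, passed with DESeq2's size factors. RB1 and CDKN1B had log2 ratios of 0.01 and −0.01, CDKN2C of −0.11 and CDKN1C of 0.38, and these 4 genes did not pass. All 8 ratios lie within 0.38 of 0, where the SD over all genes tested was 0.34 and 2.2% of genes were over 2-fold apart. Across 17148 genes, which share these libraries, the log2 ratio fell with exon length (Spearman rho of −0.16), from a median of 0.06 in the shortest of 4 equal classes of genes to −0.08 in the longest. CDK6 is longer than 91.5% of these genes, and the part of length in its difference was not tested.

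**Figure D4:**
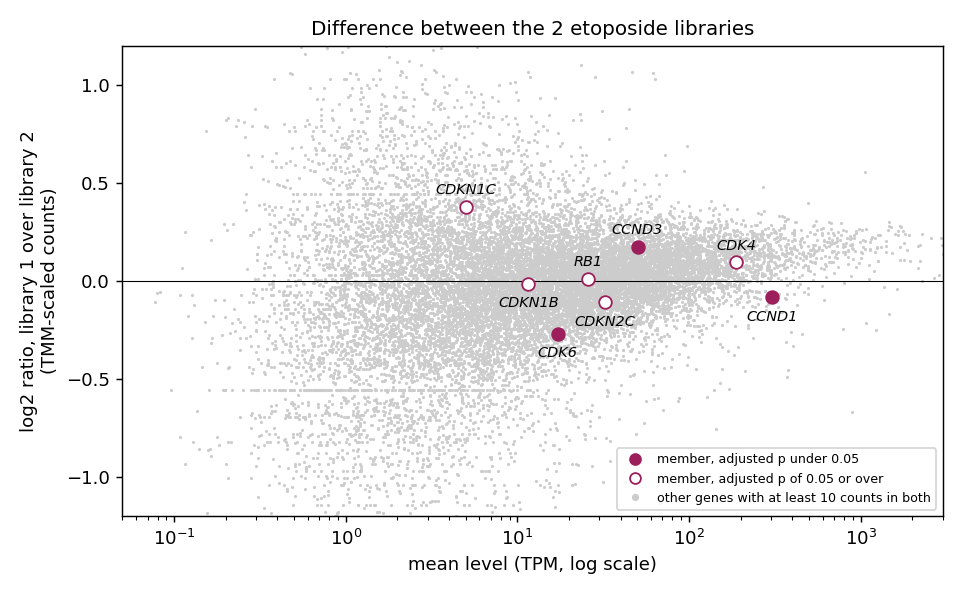
Log2 ratio of TMM-scaled counts, library 1 over library 2, against mean TPM (log axis) for genes with at least 10 counts in both libraries; 191 of 17148 genes lie outside the axes. Filled symbols are members with an adjusted p under 0.05 (CDK6, CCND1 and CCND3), open symbols the other 5, and all 8 lie between −0.27 and 0.38.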

How the data were processed

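RNA-Seq was performed by the authors on U2OS cells in 3 groups with 2 libraries each. Poly-A mRNA was sequenced as paired-end reads, aligned to GRCh38 with HISAT2 2.1.0 and counted per Ensembl gene with featureCounts (Subread 2.0.0), per the labels and the study's methods. The authors deposited raw counts, whole numbers without normalization. Strand and multi-mapping options are not given in the sources used here, so reads of genes that overlap on opposite strands cannot be told apart. The incomplete last line of each control and adriamycin library was left out. A legend of the study on RNA expression calls the 2 replicates of each condition technical. Its legends on chromatin boundaries describe replicates as cells cultured apart, and a supplementary one calls such replicates technical too. The word technical thus does not exclude separate cultures in the study's use. Whether the RNA libraries also came from cells cultured apart is not given in the sources used here, so their spread may be technical.

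The 10 genes and the other lists were chosen with earlier results of these data known. Symbols, coordinates and exon lengths came from GENCODE release 44, which matched 60357 of 67140 identifiers, holding 99.96% of the counts. TPM (per 1000000 transcripts) was computed from merged exons. Genes with at least 10 counts in both libraries were called detected. The libraries were compared by an exact binomial test with TMM scaling (edgeR 4.0.16, R 4.3.3) and Benjamini-Hochberg adjustment over all genes tested, after a test on simulated data. DESeq2 1.42.0 size factors were an alternative. Python 3.11.15, scipy 1.17.1 and pandas 2.3.3 were used. The genes named were all 10 members, all genes of the closest families, and the highest and lowest of the other lists. Between-group tests planned for the case that all libraries held the genes were not run. Alternatives were transcript length, scaling, count minimum, threshold and leaving out each library.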

Additional observations from a re-analysis of the deposited data

How the results depend on the processing

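No paired analysis was possible because the 10 genes were measured in the libraries of 1 group only. Few or no counts at this depth limit CDKN2A and CDKN2B. With the longest transcript as length, 6 of the 10 genes kept their place in the order of levels, and the mean ratios became 17.6 for CDK4 to CDK6, 2.84 for CCND1 to CCND3, 3.90 for CDKN1B to CDKN1C and, as a lower bound, 59.8 for CDKN2C to CDKN2A, from 11.1, 6.09, 2.34 and 213. In raw counts they were 2.82, 5.04, 8.73 and 165. With only exon bases that no other gene shares as length, the CDK4 to CDK6 ratio was 19.8. Leaving out each etoposide library gave ranges of 9.75 to 12.5, 5.55 to 6.64, 2.03 to 2.66 and 180 to 245, in the same sequence, 9 to 10 genes in place in the order, with CDKN2A and CDKN2B tied at 0 counts in library 2 and given the upper of their 2 places, and 8 to 9 genes detected, the ninth being CDKN2B in library 1. Every ratio stayed above 1 in each of these settings. At an adjusted p under 0.01 in place of 0.05, 2124 genes differed between the libraries in place of 3357, as the threshold itself requires, and 2 members in place of 3. With the other scalings and without a filter the members that differed numbered 2 to 4.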

Other observations

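Polycomb proteins are known to act at the CDKN2A locus as repressors and 7 of their genes were counted. All 7 reached 10 counts in each etoposide library, against 68.9% of the protein-coding genes. Their median was 27.7 TPM, against 16.5 TPM over the detected protein-coding genes. BMI1, a subunit of the complex that ubiquitinates histone H2A, was the highest at 98.2 and 89.9 TPM. EZH2, the histone H3 methyltransferase, was the lowest per merged exon length at 9.08 and 9.38 TPM. With the longest transcript as length EZH2 was at 16.6 TPM and CBX7, a chromodomain subunit, was the lowest at 14.3 TPM. Whether these levels bear on CDKN2A was not tested.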
